A study of Mus musculus with 6 samples.

Results

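The genes described here carry the insulin signal from the cell surface to the nucleus, namely Insr, Irs1, Irs2, Pik3ca, Pik3r1, Akt1, Akt2, Foxo1 and Foxo3. They were chosen by name, and every probe whose gene name in the scanner files equals one of these symbols was taken, which gives 9 genes out of 37074 gene names and 17 probes out of 56605. RNA of the hypothalamus was measured on 6 mouse arrays of the Agilent SurePrint G3 type in 1 colour, with 3 arrays labelled GSK-J4 and 3 labelled vehicle. All samples are labelled as male C57BL/6J DIO mice, that is, mice made obese by feeding, on a diet with 60 kcal% fat. The study's methods place the start of that diet at 6 weeks of age and its length at 16 weeks. GSK-J4, which inhibits the enzymes that take the methyl groups off H3k27me3, was given at a dose of 30 mg per kg against 0 for vehicle, and the series description gives day 4 after exposure for the tissue, while the methods also describe a longer course. A different mouse was used for each of the 3 experiments, the tissue was taken at ZT 6 h, where ZT counts hours from lights on, and p-values measure only the spread between these samples.

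All 3 vehicle arrays lie on slide 1 and in scan 1, and all 3 GSK-J4 arrays lie on slide 2 and in scan 2, so the slide and the treatment cannot be told apart for any gene here. The GSK-J4 arrays were dimmer before normalization, with a 75th percentile of the signal between 406 and 461 against 787 to 916 on the vehicle arrays. Between 57.7% and 58.7% of probes were well above background on the GSK-J4 arrays, compared with 62.8% to 63.6% on the vehicle arrays. One vehicle array stood apart by another tissue's genes. The summed signal of 6 choroid plexus markers, among which Ttr has the probe with the highest signal, was 16.93 on the log2 scale in vehicle replicate 1, whereas it was 11.56 and 11.69 in vehicle replicates 2 and 3 and 13.59, 11.47 and 12.49 in GSK-J4 replicates 1, 2 and 3. The values below were therefore also computed without each array. Values are normalized log2 signals, and a log2 fold change is the GSK-J4 mean minus the vehicle mean, so that a value above 0 is higher in GSK-J4. Its standard error is given as SE.

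Insulin binds the insulin receptor, a tyrosine kinase in the cell membrane, which phosphorylates the IRS adaptor proteins. These recruit PI3K, whose lipid product brings the AKT kinases to the membrane, and AKT phosphorylates FoxO transcription factors and keeps them out of the nucleus. In neurons of the arcuate nucleus this pathway acts beside leptin signaling to restrain feeding, and Foxo1 there favours the feeding peptides Agrp and Npy and restrains Pomc. The arrays measure RNA, so receptor activity, phosphorylation and the place of a protein in the cell were not measured.

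A probe was tested if, in at least 1 group, all 3 arrays measured it well above background, which was true of 16 of the 17 member probes, and 15 of them were well above background on all 6 arrays. Probes were called with limma at an adjusted p of up to 0.05, adjusted over the 34443 kept probes. Of the member probes 3 rose and 0 fell, where 8.38% of all kept probes rose and 8.4% fell. The 3 probes belong to Irs2, Akt2 and Foxo3, and for Akt2 and Foxo3 the call was made on 1 probe out of 3. The Foxo3 probe among them entered the test only through GSK-J4, the group where it is higher. Without adjustment, at a limma p of at most 0.05, 6 member probes were higher and 0 lower, against 19.5% and 17% of all kept probes. The methods' t-test called 0 members in either direction after adjustment, and 0.0987% of all kept probes as higher and 0.0726% as lower. A fold change of at least 1.5 with an unadjusted p of at most 0.05, the thresholds of the methods but with limma's p, was passed by 1 member probe higher, that of Foxo3, and by 0 lower, compared with 4.8% and 7.85% of all kept probes. That probe is the same one, measured against a vehicle level mostly not above background, and among the 30940 probes well above background on all 6 arrays 0 members passed these thresholds, where 5.02% of those probes were higher and 6.11% lower. With the p of the methods' t-test 1 member probe was higher and 0 lower, against 3.32% and 5.21% of all kept probes. The groups did not overlap for 10 of the 16 kept member probes, or 62.5%, against 45.6% of all kept probes. The median log2 fold change of the member probes was 0.17 against 0.02 for all kept probes, and their median size without sign was 0.19 against 0.25. In whole tissue, fewer cells of a type and less RNA per cell cannot be told apart, and this holds for each difference given here.

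The probes are oligonucleotides of 60 bases. Those of the 3 calls are printed here with a further Foxo3 probe, because the differences described below followed the base composition of the probes. Capitals mark the bases G and C.
Irs2 A_66_P102260: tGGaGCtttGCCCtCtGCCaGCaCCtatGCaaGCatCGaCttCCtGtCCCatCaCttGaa
Akt2 A_51_P408044: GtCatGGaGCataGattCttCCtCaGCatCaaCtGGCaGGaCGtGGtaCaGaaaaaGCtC
Foxo3 A_55_P2506540: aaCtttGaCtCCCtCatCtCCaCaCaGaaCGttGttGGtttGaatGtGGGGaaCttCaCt
Foxo3 A_55_P2735425: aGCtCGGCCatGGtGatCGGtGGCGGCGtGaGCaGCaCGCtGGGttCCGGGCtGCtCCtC
G and C make up 32 of the bases in the Irs2 probe, 29 in the Akt2 probe and 27 in the first of the Foxo3 probes. In the other Foxo3 probe they make up 42, or 70%, which is the highest share among the member probes. Positions are those of the files on mm9, and exons and untranslated regions were not assigned here.

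**Figure D1:**
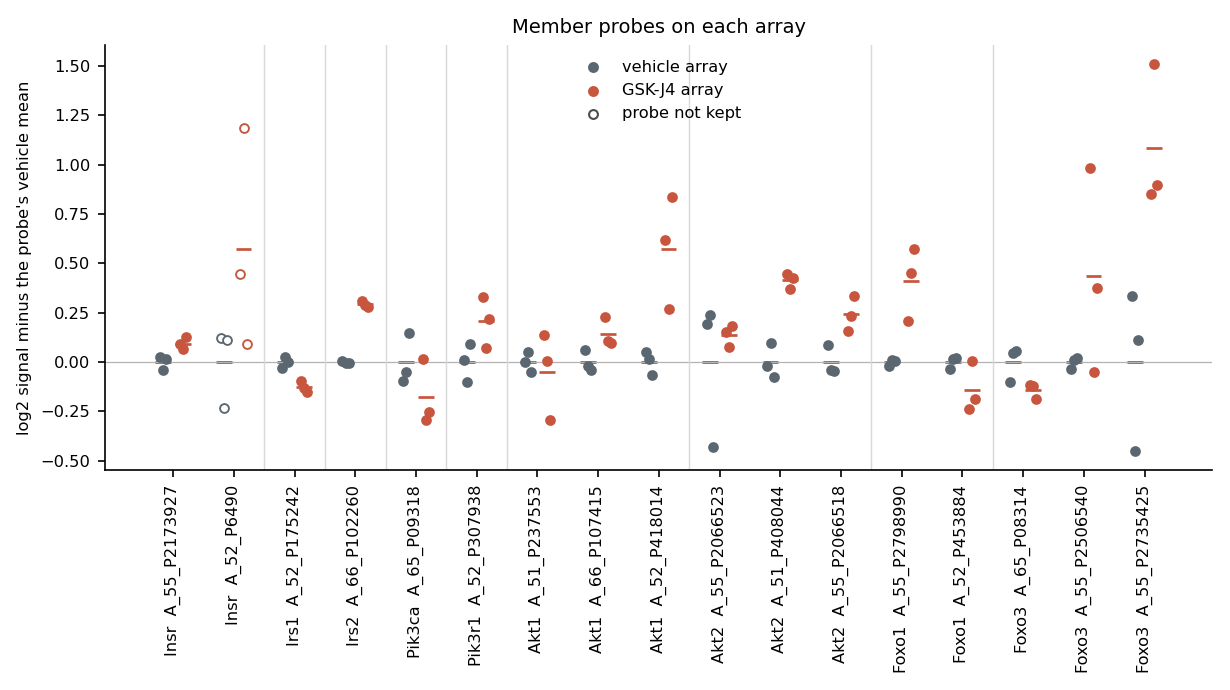
Normalized log2 signal of each of the 17 member probes on each array, minus the mean of the 3 vehicle arrays for that probe. Points are single arrays, short lines are group means, and open points mark the Insr probe that was not kept. The GSK-J4 points of Irs2 lie close together at about 0.3, whereas those of Foxo3 A_55_P2735425 spread widely above vehicle points that are themselves spread.

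Insr encodes the receptor, and its kept probe A_55_P2173927 lies on chromosome 8 from 3155472 to 3155531. Its signal was 7.04, 6.98 and 7.04 on vehicle arrays 1, 2 and 3 and 7.11, 7.08 and 7.14 on the corresponding GSK-J4 arrays. Every GSK-J4 array was above every vehicle array, by a small margin. The log2 fold change was 0.09 (SE 0.07, adjusted p = 0.349), and with scaling to the 75th percentile it was -0.04, so that no direction is given for the receptor. The second Insr probe, A_52_P6490, from 3159473 to 3159532, was well above background on 2 of 3 arrays in each group and was not tested. Its signals were 4.34, 3.99 and 4.33 for vehicle and 4.67, 5.41 and 4.31 for GSK-J4, and the groups overlapped.

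Irs1 and Irs2 encode the main adaptors that the activated receptor phosphorylates, and each is measured by 1 probe. Irs2, measured by A_66_P102260 on chromosome 8 from 11004490 to 11004549, gave signals of 13.84, 13.83 and 13.83 on the vehicle arrays and of 14.14, 14.13 and 14.12 on the GSK-J4 arrays. The replicates were nearly equal within each group, with an SD of 0.0046 for vehicle and 0.013 for GSK-J4 (n = 3 each), and all GSK-J4 arrays were higher. Before normalization the Irs2 spot signals were 16925, 20634 and 17186 for vehicle and 15787, 14695 and 13130 for GSK-J4, lower on every GSK-J4 array. After normalization, which brings the dimmer GSK-J4 arrays to the same distribution, Irs2 rose by 0.29 (SE 0.06, adjusted p = 0.034), a 1.23-fold difference. With scaling to the 75th percentile the rise was larger, at 0.60 (adjusted p = 0.0112). Once each array was corrected for its trend on the share of G and C in the probe (below, with the GC trend removed), this fell to 0.05 (adjusted p = 0.607). Without vehicle replicate 1 it was 0.30 (adjusted p = 0.0873), and each of the other arrays left out in turn also took the adjusted p above 0.05, with values between 0.29 and 0.30.

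For Irs1 the probe A_52_P175242, on chromosome 1 from 82229692 to 82229751, gave 10.32, 10.38 and 10.35 on the vehicle arrays and 10.26, 10.22 and 10.20 on the GSK-J4 arrays. All GSK-J4 arrays lay below all vehicle arrays. The log2 fold change of -0.13 did not pass the test (SE 0.07, adjusted p = 0.22), and with the GC trend removed it was 0.06. An exact permutation test over the 20 orders of 3 arrays against 3 gave a two-sided p of 0.1 for both genes, the smallest that this design allows.

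PI3K consists of a catalytic subunit, here Pik3ca, and a regulatory subunit, here Pik3r1, that binds the phosphorylated adaptors. The Pik3ca probe A_65_P09318, on chromosome 3 from 32364747 to 32364806, had signals of 9.23, 9.28 and 9.48 for vehicle and 9.35, 9.03 and 9.08 for GSK-J4. The Pik3r1 probe A_52_P307938, whose ends lie at 102459406 and 102460448 on chromosome 13, had 10.22, 10.11 and 10.31 for vehicle and 10.54, 10.28 and 10.43 for GSK-J4. In both genes 1 GSK-J4 array lay within the range of the vehicle arrays, replicate 1 for Pik3ca and replicate 2 for Pik3r1. The log2 fold changes were -0.18 for Pik3ca (SE 0.12, adjusted p = 0.331) and 0.21 for Pik3r1 (SE 0.10, adjusted p = 0.192). The 95% intervals ran from -0.47 to 0.12 and from -0.04 to 0.45, so the data allow differences of either sign for both subunits. With the GC trend removed the value was 0.01 for Pik3ca and 0.15 for Pik3r1.

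Akt1 and Akt2 encode kinases that relay the PI3K signal, and each is measured by 3 probes that gave unequal differences. For Akt1 the probe A_51_P237553, on chromosome 12 from 113892079 to 113892138, gave 13.63, 13.69 and 13.58 for vehicle and 13.77, 13.64 and 13.34 for GSK-J4. GSK-J4 replicate 1 was above and GSK-J4 replicate 3 below all vehicle arrays on this probe, and the mean difference was -0.05 (adjusted p = 0.799). This sign turned with 75th percentile scaling, to 0.23, with the GC trend removed, to 0.14, and without GSK-J4 replicate 3, to 0.07. Probe A_66_P107415, from 113894094 to 113894153, gave 0.14 (SE 0.08, adjusted p = 0.226), and -0.09 with the GC trend removed.

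The third Akt1 probe, A_52_P418014, has its ends at 113900509 and 113909775, a span of 9267 bases, so that it crosses at least 1 intron. Its signals were 8.12, 8.08 and 8.00 on the vehicle arrays and 8.68, 8.33 and 8.90 on the GSK-J4 arrays. All GSK-J4 arrays were above all vehicle arrays, and they were more spread, with an SD of 0.29 against 0.06. The log2 fold change of 0.57 (SE 0.15, adjusted p = 0.0549) narrowly missed the threshold. It passed when only probes well above background on all 6 arrays were tested (adjusted p = 0.0459), with an intensity trend and robust moderation (adjusted p = 0.0427), and without GSK-J4 replicate 2, at 0.73 (adjusted p = 0.0264). Within each array, A_51_P237553 minus A_52_P418014 shifted by -0.62 from vehicle to GSK-J4 without overlap, so the 2 probes did not move together in the main fit. With the GC trend removed A_52_P418014 gave 0.36, and the shift between the 2 probes was -0.22 with overlap. For A_66_P107415 minus A_52_P418014 the shift was -0.43 in the main fit and -0.44 with the GC trend removed, both without overlap. For A_51_P237553 minus A_66_P107415 it was -0.19 without overlap in the main fit, and 0.23 with overlap once the GC trend was removed.

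For Akt2, which is known for its part in insulin-stimulated glucose uptake, the probe A_51_P408044 has its ends at 28421973 and 28422113 on chromosome 7. Its signals were 8.30, 8.42 and 8.25 on the vehicle arrays and 8.77, 8.69 and 8.75 on the GSK-J4 arrays. The groups were separated by more than the spread of either. Before normalization the spot signals were 431, 527 and 408 for vehicle and 326, 307 and 288 for GSK-J4, lower on every GSK-J4 array. After normalization this probe rose by 0.41 (SE 0.08, adjusted p = 0.027), a 1.33-fold difference. The rise became 0.22 with the GC trend removed (adjusted p = 0.109) and 0.40 without vehicle replicate 1 (adjusted p = 0.0807). Leaving out vehicle replicate 2 gave 0.46 and leaving out vehicle replicate 3 gave 0.38, with adjusted p of 0.0734 and 0.0933. Without GSK-J4 replicate 1 or 3 the call was also lost at nearly the same size, 0.40 and 0.41 (adjusted p of 0.0632 and 0.0523), whereas it held without GSK-J4 replicate 2.

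The other Akt2 probes did not pass in the main fit. Probe A_55_P2066518, from 28424405 to 28424464, gave 12.69, 12.56 and 12.55 for vehicle and 12.76, 12.83 and 12.93 for GSK-J4. The groups did not overlap, and the log2 fold change was 0.24 (SE 0.08, adjusted p = 0.0955), little different with the GC trend removed, at 0.23. With scaling to the 75th percentile it was 0.44 and passed (adjusted p = 0.0162). On A_55_P2066523, from 28418226 to 28418285, vehicle replicate 3 stood at 8.24 below the other 2 vehicle arrays at 8.86 and 8.91, and the GSK-J4 arrays were at 8.82, 8.74 and 8.85. The log2 fold change of 0.14 (adjusted p = 0.634) on that probe rests on vehicle replicate 3, since it was -0.08 without it. It was also below 0 with normexp, at -0.03, and with the GC trend removed, at -0.11.

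Foxo1 and Foxo3 encode transcription factors that AKT inhibits, and both had probes of opposite sign in the main fit. Foxo1 probe A_55_P2798990, on chromosome 3 from 52150946 to 52151005, gave 11.97, 12.00 and 12.00 for vehicle and 12.20, 12.44 and 12.56 for GSK-J4. Foxo1 probe A_52_P453884, from 52153289 to 52153348, gave 11.26, 11.32 and 11.32 for vehicle and 11.06, 11.31 and 11.11 for GSK-J4. On the first probe all GSK-J4 arrays were above all vehicle arrays, while on the second the groups overlapped through GSK-J4 replicate 2. The log2 fold changes were 0.41 (SE 0.11, adjusted p = 0.0544) and -0.14 (SE 0.09, adjusted p = 0.305). With the GC trend removed they were 0.36 and -0.05. The first passed the threshold with 75th percentile scaling, at 0.58 (adjusted p = 0.019), with an intensity trend and robust moderation (adjusted p = 0.0321), when only probes well above background on all 6 arrays were tested (adjusted p = 0.0454), and without GSK-J4 replicate 1, at 0.51 (adjusted p = 0.0395). Within each array the first probe minus the second was 0.71, 0.69 and 0.68 for vehicle and 1.14, 1.14 and 1.45 for GSK-J4. This gap widened by 0.55 without overlap (exact permutation test, two-sided p = 0.1), so the probes of Foxo1 moved unequally. With the GC trend removed the gap widened by 0.40, also without overlap.

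The Foxo3 probes gave unequal differences in the main fit. With the GC trend removed all 3 were above 0, at 0.05, 0.38 and 0.71. The within-array difference between any 2 of them then overlapped between the groups, unlike that of the Foxo1 probes. The probe A_65_P08314, on chromosome 10 from 41901997 to 41902056, gave 10.02, 10.17 and 10.18 for vehicle and 10.00, 10.00 and 9.94 for GSK-J4. All GSK-J4 arrays were lower by a small margin, and the log2 fold change of -0.14 did not pass (SE 0.08, adjusted p = 0.238) and was 0.05 with the GC trend removed. Probe A_55_P2506540, from 41916349 to 41916408, gave 5.98, 6.02 and 6.03 for vehicle and 6.99, 5.96 and 6.38 for GSK-J4. The vehicle arrays were nearly equal there, while GSK-J4 replicate 2 lay below all of them and GSK-J4 replicate 1 far above. The log2 fold change was 0.43 (SE 0.26, adjusted p = 0.271), and it was 0.16 without GSK-J4 replicate 1 and 0.68 without GSK-J4 replicate 2.

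The third Foxo3 probe, A_55_P2735425, lies from 41994961 to 41995020. Its signals were 4.18, 3.39 and 3.96 on the vehicle arrays and 4.70, 5.35 and 4.74 on the GSK-J4 arrays. No GSK-J4 array overlapped a vehicle array. The difference was 1.09 on the log2 scale (SE 0.27, adjusted p = 0.0465), with a 95% interval from 0.42 to 1.75. The probe was well above background on 1 of 3 vehicle arrays and on 3 of 3 GSK-J4 arrays, so it was tested only because it passed the filter in the group where it is higher, and the vehicle level is measured on 1 array. The lowest normalized signal of any probe well above background was 3.79 to 3.90 on the vehicle arrays and 4.39 to 4.64 on the GSK-J4 arrays, which places the probe near that limit in both groups. Before normalization its spot signals were 25.3, 15.9 and 21.2 for vehicle and 18.4, 29.8 and 17.2 for GSK-J4. These overlapped, and the separation of the groups was present once all 6 arrays were brought to the same distribution. The difference was 0.26 with normexp (adjusted p = 0.0602), 0.71 with the GC trend removed (adjusted p = 0.156) and 1.25 without vehicle replicate 1 (adjusted p = 0.079). With each of the other arrays left out it lay between 0.86 and 1.20, with an adjusted p above 0.05 in each case. In 1 of the settings without a vehicle array, no remaining vehicle array had the probe well above background. It also missed the threshold with 75th percentile scaling, at 0.97 (adjusted p = 0.0581), and when all probes were tested without a filter (adjusted p = 0.084).

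**Figure D2:**
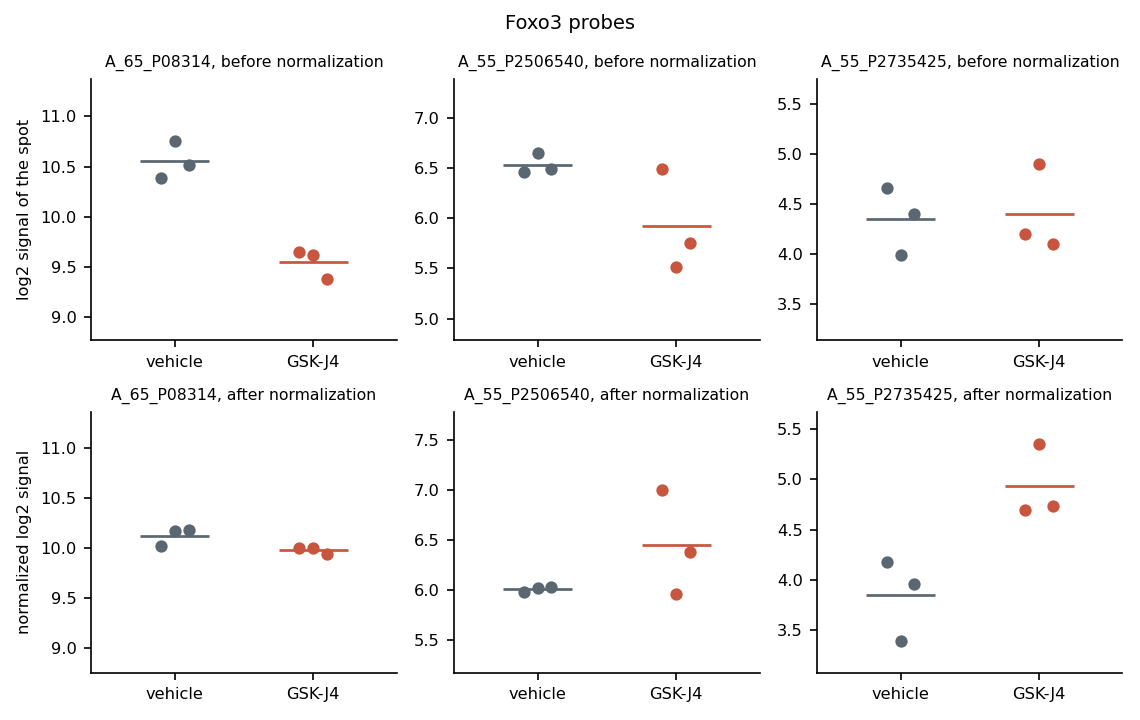
Signal of the 3 Foxo3 probes on each array, in the upper row as log2 of the spot signal before normalization and in the lower row as normalized log2 signal, with every vertical axis spanning 2.6 log2 units. Points are arrays and lines are group means. On A_55_P2735425 the groups overlap before normalization and are separate after it, at 3.39 to 4.18 for vehicle and 4.70 to 5.35 for GSK-J4.

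The spread between probes of a gene was compared over probes well above background on all 6 arrays, which leaves out A_55_P2735425. The log2 fold changes of the other 2 Foxo3 probes were 0.58 apart and those of Foxo1 0.55, and 16.1% and 17.7% of the 4715 genes with 2 such probes had a span at least as large, their median being 0.22. The span was 0.62 for Akt1 and 0.28 for Akt2, reached by 33.0% and 71.7% of the 1745 genes with 3 such probes, whose median was 0.45. The spans of Foxo3, Foxo1 and Akt1 were thus above the median of genes with as many such probes, and that of Akt2 was below it. With A_55_P2735425 included, the 3 Foxo3 probes spanned 1.23, reached by 9.45% of the 2011 genes with 3 kept probes. Over probes well above background on all 6 arrays, calls in both directions within 1 gene were found in 88 of 7185 genes, or 1.22%. None of the members had such calls in both directions, since 0 member probes passed the test as lower. The files assign A_65_P08314 to another transcript record than the other Foxo3 probes, and they assign both Foxo1 probes to the same record. Akt2 A_51_P408044 and Akt1 A_66_P107415 are also assigned to other records than the remaining probes of their genes.

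The differences of the member probes followed base composition. All 5 member probes with a negative log2 fold change have between 35% and 38.3% G and C, and all 11 with a positive one have between 43.3% and 70%. Across the 16 kept member probes the log2 fold change correlated with GC content at 0.85 (Pearson) and 0.72 (Spearman), a description over probes that share the same 6 arrays. Over the 15 that were well above background on all 6 arrays, without Foxo3 A_55_P2735425, it was 0.71 and 0.65. Over all 34443 kept probes the correlations were 0.33 and 0.36. Among the 7890 kept probes with at most 35% G and C the median log2 fold change was -0.16, with 1.74% called higher and 15.8% lower. Among the 3492 with more than 55% it was 0.25, with 23.5% called higher and 1.37% lower. With the GC trend removed, 6 of the 16 member probes changed sign and 0 of the 3 calls were left at an adjusted p of at most 0.05, where 4.89% of all kept probes were then called higher and 5.74% lower. Among the member probes well above background on all 6 arrays, the largest values left were 0.38 for Foxo3 A_55_P2506540, 0.36 for Foxo1 A_55_P2798990 and 0.36 for Akt1 A_52_P418014. Foxo3 A_55_P2735425, whose vehicle level was mostly not above background, was left at 0.71 and is not ranked with them. The part of base composition in the differences of single genes was not tested beyond this correction.

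**Figure D3:**
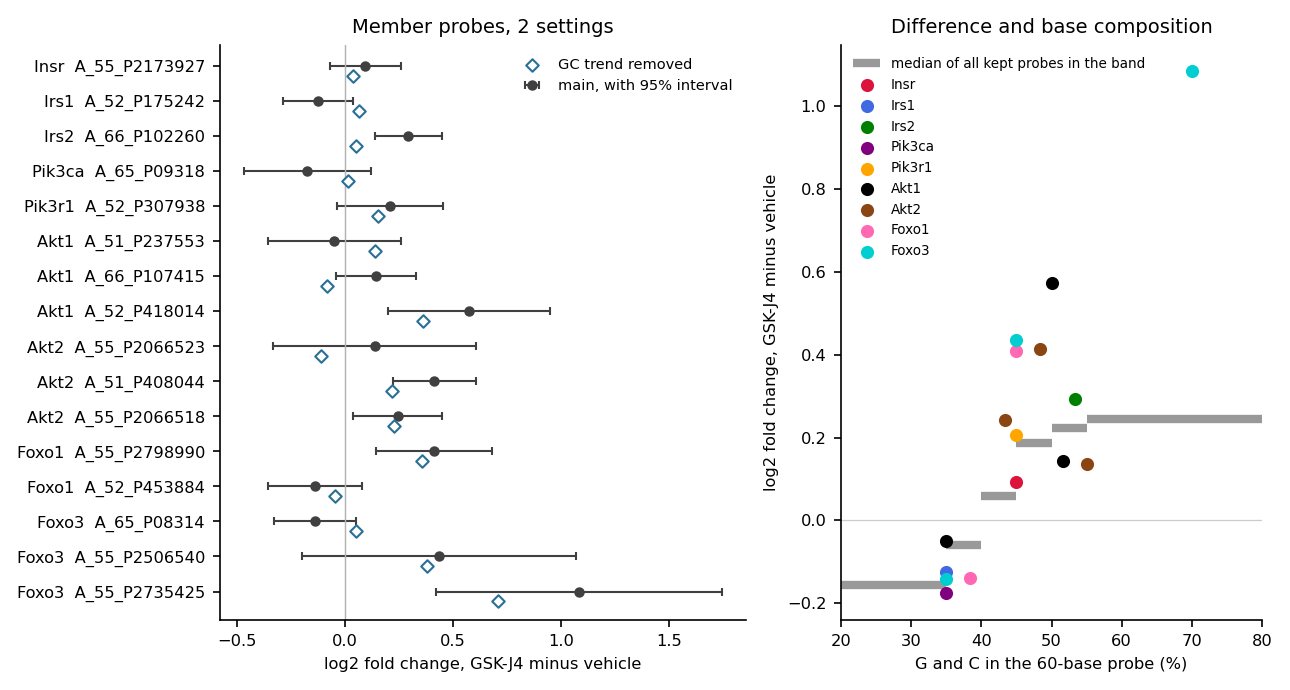
On the left, log2 fold change of each kept member probe with its 95% interval from limma (filled) and the value after the GC trend was removed (open diamonds). On the right, the same log2 fold changes against the percentage of G and C in the probe, with grey bars for the median of all kept probes in bands of GC content. The probes with up to 38.3% G and C lie below 0 and the others above it, and Foxo3 A_55_P2735425 stands at 70% and 1.09.

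The rest of the pathway was described by lists of 90 further genes with 185 probes, of which 85 genes and 158 probes were kept. Of these probes 9 rose and 9 fell by the same test, in 9 and 8 genes, or 5.70% in each direction against 8.38% and 8.4% of all kept probes. The median log2 fold change was -0.05, and with the GC trend removed 6 were higher and 6 lower. Among the receptors and adaptors 2 of 25 kept probes rose and 3 fell, or 8% and 12%, and among the negative regulators 2 of 23 rose and 2 fell, or 8.70% each, shares near those of all kept probes. Of the PI3K subunits beside the members, 2 of 21 kept probes rose and 0 fell, and of the further kinases 0 of 25 rose and 3 fell. The AKT substrates had 0 higher and 1 lower of 16 probes, the FoxO regulators 0 and 0 of 16, and the FoxO target genes 2 and 0 of 25. Since the zero counts come from limma at this threshold, they do not show that those genes were unchanged.

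Among the ligands, Igf1, a growth factor that acts through the related receptor Igf1r, rose on 1 of 3 probes, A_51_P147942, by 0.50 (SE 0.10, adjusted p = 0.0283). It kept that call with the GC trend removed, at 0.45 (adjusted p = 0.0432), and lost it with scaling to the 75th percentile, at 0.37 (adjusted p = 0.0522), and without any 1 of the 6 arrays, at 0.46 to 0.58, while its other probes gave -0.39 and -0.04. Ins1 had no kept probe. Ins2 gave -0.11 and the 2 Igf2 probes gave -0.19 and -0.16, with standard errors of 0.70, 0.66 and 0.63. For Igf2 the highest signal was on vehicle replicate 1, the array with the high choroid plexus signal, where A_51_P516833 was at 10.88 against 8.35 and 8.94 on the other vehicle arrays, and without that array its probes gave 0.55 and 0.58. Ins2 was spread over all 3 vehicle arrays, at 7.83, 6.36 and 5.13, and turned to 0.59 without vehicle replicate 1 and to 0.20 without GSK-J4 replicate 3. No direction is given for either gene. The part of choroid plexus tissue in these values was not tested.

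Of the paralogues of the members, Igf1r gave -0.01, -0.57, 0.13 and -0.53 on 4 probes, none past the threshold. Irs4 and Foxo4 had no kept probe, and Foxo6 gave -0.02 and Pik3r3 0.21, also not past it. The catalytic subunits Pik3cb, with -0.23 and -0.49, and Pik3cd, with -0.06, -0.28 and -0.07, did not pass either. Of the 2 probes called among the PI3K subunits, 1 is the probe of a further catalytic subunit, which is given by counts only and was higher. The regulatory subunit Pik3r2 rose on A_55_P2739463 by 0.39 (SE 0.09, adjusted p = 0.0375), which was 0.15 with the GC trend removed (adjusted p = 0.297), and its other probe gave 0.13.

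At the receptor, the adaptor Shc1, which couples receptors to Ras, rose on 1 of 2 probes by 0.52 (adjusted p = 0.021). The exchange factor Sos1, which activates Ras, fell by 0.95 on A_65_P20308 (adjusted p = 0.0141) and fell by 0.52 on A_55_P2918660 (adjusted p = 0.0151), and both calls were kept with the GC trend removed. Both were lost when vehicle replicate 1, 2 or 3 was left out, at -1.01 to -0.89 and -0.53 to -0.51. No GSK-J4 array had the third Sos1 probe well above background, and no fold is given for it. Grb10 and Grb14, adaptors that bind and restrain the insulin receptor, each had 1 called probe, and the calls were opposite. Grb10 rose by 0.77 on A_55_P1955457 (adjusted p = 0.0283), while A_52_P40363 gave -0.42 without passing (adjusted p = 0.182). The remaining Grb10 probe, A_55_P2717329, was well above background on 0 of 3 GSK-J4 arrays, its groups overlapped and it did not pass (adjusted p = 0.15), so that no direction is given for it. Grb14 fell by 0.95 on A_55_P2721469 (adjusted p = 0.0248), while its other kept probes gave 0.10 and 0.17.

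Downstream, Phlpp2, a phosphatase of AKT, fell by 0.38 (adjusted p = 0.0287), and Trib3, a pseudokinase that binds AKT, rose by 0.63 (adjusted p = 0.0218). Mtor, a kinase that acts upstream and downstream of AKT, fell by 0.38 on A_51_P282179 (adjusted p = 0.0222) while A_52_P67643 gave 0.27 (adjusted p = 0.0908). Tbc1d1, an AKT substrate in glucose transporter traffic, fell by 0.80 on 1 of 3 probes (adjusted p = 0.0172), with -0.01 and -0.16 on the others. Among FoxO target genes Npy rose by 0.42 (adjusted p = 0.0269) and Pomc by 0.86 (adjusted p = 0.0221), 2 arcuate genes that Foxo1 is known to regulate in opposite directions. Of the 13 called probes of genes named here, 8 were also called with the GC trend removed, and those of Pik3r2, Shc1, Phlpp2, Mtor and Npy were not. Over all alternatives the log2 fold change ranged from 0.27 to 0.55 for the called Shc1 probe and from -0.41 to -0.25 for Phlpp2. It ranged from -0.40 to -0.19 for the called Mtor probe and from 0.21 to 0.56 for Npy. The methods' t-test called 2 of the 13, and 0 were called when vehicle replicate 1, 2 or 3 was left out, settings in which at most 0.00581% of all kept probes were called higher and 0.0348% lower.

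**Figure D4:**
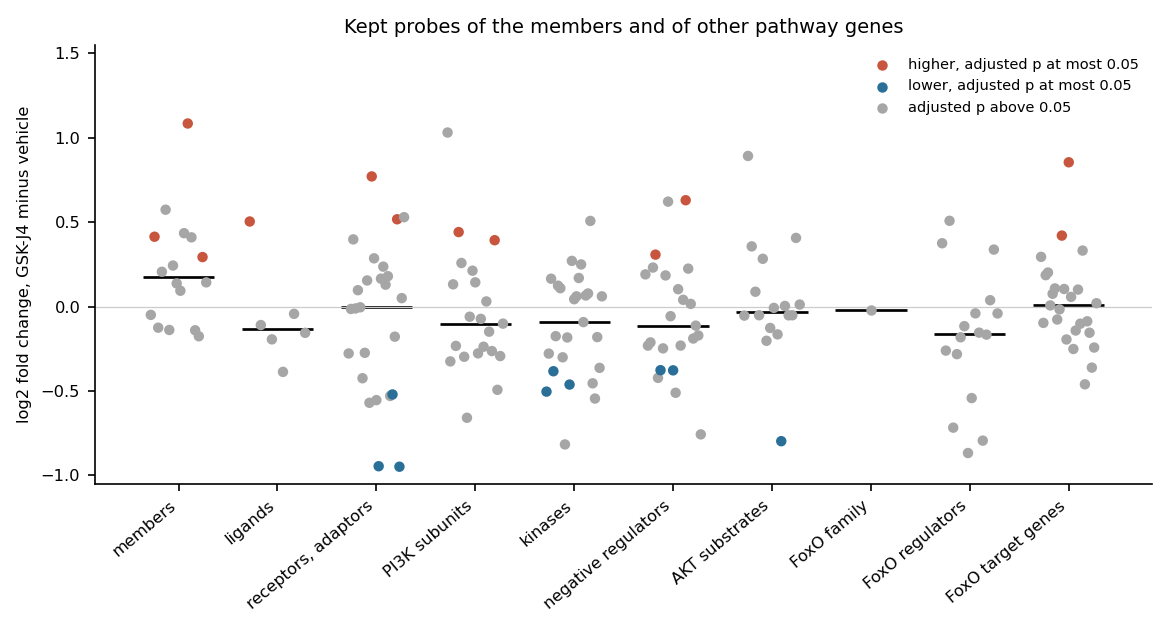
Log2 fold change of each kept probe of the members and of 9 lists of other pathway genes, with black lines at the medians. Red and blue points passed an adjusted p of at most 0.05 as higher and lower in GSK-J4, and grey points did not. Members have 3 red points and 0 blue, and the other lists together have 9 of each.

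Markers were examined for the cells that the tissue could hold. Of 16 hypothalamic neuropeptide and transcription factor genes 12 had a kept probe, whereas Avp, Pmch, Sim1 and Trh had none. Of their 14 kept probes 3 rose and 0 fell, with 13 above 0 and a median of 0.42. These are 21.4% and 0%, against 8.38% and 8.4% of all kept probes. The called probes of Npy and Pomc are the same ones given above for the FoxO target genes, since the lists share them. The called Ghrh probe had means of 4.74 and 5.33, not far above the lowest signals well above background. Kiss1 A_55_P2069765, at 1.02, was kept only through GSK-J4, the group where it is higher. Without vehicle replicate 1, 2 or 3 or GSK-J4 replicate 1, 0 of the 14 probes were called, and without GSK-J4 replicate 2 or 3, 4 were called higher. Over the 14 probes the summed log2 signal was 15.30, 15.51 and 15.38 on the vehicle arrays and 15.51, 15.52 and 15.53 on the GSK-J4 arrays. Of 18 kept probes of neuronal markers 1 rose and 6 fell, or 5.56% and 33.3%, with 7 above 0 and a median of -0.35. The falls lie in 3 genes, and 1 gene had calls in both directions. That gene is Map2, whose called lower probes all have 35% G and C, while its called higher probe has 45%. Without vehicle replicate 1, 2 or 3, settings in which few of all kept probes were called, 0 neuronal probes were called. Without GSK-J4 replicate 1, 2 and 3, 5, 5 and 6 were called lower. The summed log2 signal of the neuronal probes was 17.72, 17.74 and 17.72 for vehicle and 17.70, 17.61 and 17.65 for GSK-J4. Astrocyte markers had 2 probes higher and 1 lower of 14, or 14.3% and 7.14%. Markers of oligodendrocytes, microglia, endothelium and choroid plexus had 0 called probes in either direction, with medians of 0.0036, 0.15, -0.07 and -1.34. The choroid plexus median rests on vehicle replicate 1, since without it the median was 0.64, with 6 of 7 probes above 0. Of 6 pituitary genes 1 had a kept probe, Lhb, which gave 0.18 and was not called. The fat markers Adipoq and Plin1 had no kept probe and were not tested, and the 5 kept probes of blood genes had 0 calls and a median of -0.02. The probes with the highest signal in the hypothalamic and neuronal lists, those of Sst and Eno2, gave 0.08 and 0.17, although signals of different probes do not rank genes by abundance. The part of cell composition in the values of the insulin pathway genes was not tested.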

How the data were processed

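The authors scanned the arrays and deposited for each spot a background-corrected intensity from Feature Extraction 10.7.1.1, together with a table of log2 values for 56745 probes that the methods describe as quantile normalized. Every column of it has a median of 5.74 and has a correlation of at least 0.999 with that array's log2 intensity. It was used as an alternative, and the member log2 fold changes from it differed by at most 0.00088.

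Files were read in R 4.3.3, without control spots or outlier spots, and 0 spots used were saturated. Spots of the same probe were averaged as log2 intensity, followed by quantile normalization. The filter kept 34443 of 56605 probes, namely those flagged well above background on 3 of 3 arrays in either group, 3318 of them through vehicle alone and 185 through GSK-J4 alone, and 22 kept probes lack a value on some array. Groups were compared with lmFit and eBayes of limma 3.58.1, two-sided, without covariates, with Benjamini-Hochberg adjustment over every kept probe. Depth is signal over background, and the number of arrays limits the precision. Correlations between arrays were 0.978 to 0.995 within groups and 0.969 to 0.987 between them.

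The members and lists were chosen with earlier results of these data known. The genes named are the 9 members with every probe, a list of their paralogues and the ligands, and of the other pathway genes with a probe past an adjusted p of 0.05 the 12 with the smallest p, while other genes are given by counts only, and 2 genes that this rule names are not reported here. Gene names are those of the files. No fold is given for a probe that no array of a group measured above background.

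The scripts were first tested on simulated data with known changes. Alternatives were 75th percentile scaling, normexp with an offset of 50, the deposited table, no filter or a filter on all arrays, an intensity trend with robust moderation, the methods' t-test without equal variances, the replicate number as a block, a GC correction (a lowess curve per array, span 30%), both of these together, 1 probe per gene, and each array left out in turn. ChIP-Seq and animal data were not used here.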

Additional observations from a re-analysis of the deposited data

How the results depend on the processing

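The direction in the main setting was kept by 9 of the 16 member probes under every alternative run, and by 13 in every setting without a GC correction. The adjusted calls in the main setting, higher and lower, were 2888 and 2893 over all probes, 3 and 0 for members and 9 and 9 for the pathway lists. At the thresholds of the methods they were 1654 and 2704, 1 and 0, and 5 and 5. The cause of the changes below was not tested. With the GC correction, adjusted calls over all probes that were higher came to 1684, and member calls to 0 by either rule. Log2 fold changes that changed sign were 0.063 for Irs1, 0.012 for Pik3ca, 0.14 for Akt1 A_51_P237553, -0.086 for Akt1 A_66_P107415, -0.11 for Akt2 A_55_P2066523, 0.048 for Foxo3 A_65_P08314, 0.13 for Pik3cd A_52_P99848, -0.14 for Pik3r2 A_51_P417725, 0.18 for Tbc1d1 A_55_P2113837, 0.17 for Foxo6, 0.080 for Igf1 A_55_P2085979 and 0.0053 for Igf1r A_51_P318365. These 12 values were the same for the replicate block with GC correction. With 75th percentile scaling, 5036 probes were higher by adjusted p, member calls at the thresholds of the methods were 2, pathway calls 19 higher by adjusted p and 3 higher and 15 lower at those thresholds, and Insr changed to -0.043, Akt1 A_51_P237553 to 0.23, Tbc1d1 A_55_P2113837 to 0.11, Foxo6 to 0.21 and Igf1r A_51_P318365 to 0.047. With normexp, calls at those thresholds were 523 higher and 1097 lower over all probes, 0 for members and 2 higher and 2 lower for the pathway, and Akt2 A_55_P2066523 changed to -0.028, Tbc1d1 A_55_P2113837 to 0.073, Igf1 A_55_P2085979 to 0.031 and Igf1r A_51_P318365 to 0.046. With 1 probe per gene, which tests fewer probes, calls at those thresholds were 1071 higher and 1414 lower, with 0 higher for members and 0 lower for the pathway, and adjusted calls were 1719 lower over all probes and 1 higher for members. The methods' t-test after adjustment called 34 higher and 25 lower over all probes, 0 members and 0 higher and 2 lower pathway probes, and at the thresholds 1794 lower over all probes and 3 lower for the pathway. Without a filter 1805 probes were higher by adjusted p, an intensity trend with robust moderation called 5 member probes, with 10% of all probes higher and 9.61% lower, and probes well above background on all arrays gave 0 member calls at the thresholds of the methods. Deviations of same-numbered arrays correlated only weakly, at 0.0074, 0.026 and 0.082. The best GSK-J4 partner of vehicle replicates 1, 2 and 3 was replicate 1, 1 and 3. These values do not settle whether the replicate numbers pair the arrays. With the replicate block, alone or with the GC correction, adjusted calls were 0 over all probes, 0 for members and 0 for the pathway, in both directions. With each array left out, adjusted calls ranged from 1 to 2074 higher and 4 to 2483 lower over all probes, from 0 to 2 higher for members, and from 0 to 7 higher and 0 to 11 lower for the pathway. At the thresholds of the methods the ranges were 1 to 3 higher for members, and 3 to 6 higher and 3 to 10 lower for the pathway. The log2 fold change then ranged from -0.14 to 0.072 for Akt1 A_51_P237553, -0.078 to 0.26 for Akt2 A_55_P2066523, -0.33 to 0.14 for Pik3cd A_52_P99848, -0.12 to 0.055 for Tbc1d1 A_55_P2113837, -0.11 to 0.060 for Foxo6, -0.21 to 0.26 for Igf1 A_55_P2085979, -0.71 to 0.55 and -0.67 to 0.58 for Igf2 A_51_P516833 and A_55_P2118173, -0.77 to 0.59 for Ins2, -0.081 to 0.081 for Igf1r A_51_P318365 and -0.042 to 0.28 for Igf1r A_55_P2736764. Among the member probes, signal over background limits Foxo3 A_55_P2735425 and the second Insr probe most.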
